A study of Mus musculus with 12 samples.

Results

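Unbanded hearts of mice carrying the CnAb1 transgene were compared directly with banded hearts of wild-type mice, to show which changes of pressure overload the transgene alone shares and which it lacks. The 3 arrays titled transgenic sham and the 3 titled control TAC were taken, 6 of the 12 arrays of the series. CnAb1, which the transgenic mice overexpress, is an alternatively spliced form of calcineurin's catalytic A beta subunit. TAC is trans aortic banding, a constriction of the aorta that loads the left ventricle with pressure, and sham animals had the operation without it. The transgenic sham hearts therefore carried the transgene and no band, the control TAC hearts were wild type with a band, and the 3 control sham arrays of wild-type hearts without a band served as the common baseline. All mice were of the C57/Bl6 strain and all RNA came from a piece of left ventricle. Source names give 21 days for every group, whereas a separate time label reads 0 for sham samples. The labels used here give no ages, do not name the promoter that drives the transgene, and do not say whether each array is a separate animal, so p-values measure the spread between arrays, which may be technical.

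Calcineurin is a phosphatase switched on by calcium and calmodulin. In heart muscle its best known substrates are the NFAT transcription factors, and persistent activity of the full-length enzyme drives hypertrophy. A pressure-loaded ventricle typically returns to fetal contractile and natriuretic peptide genes, lays down collagen through activated fibroblasts, and lowers genes of fatty acid oxidation and calcium cycling. ATF4, a transcription factor of the amino acid and mitochondrial stress response, raises enzymes that make asparagine, serine and one-carbon units, and the secreted factor Fgf21.

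Levels below are log2 signals scaled to the 75th percentile of each array and given relative to the mean of the 3 control sham arrays, so 1 unit is a doubling. Differences are transgenic sham minus control TAC unless another pair is named, and a gene was called where limma's Benjamini-Hochberg adjusted p was under 0.05. All 9 ventricular cardiomyocyte markers were above background on all 12 arrays. Transgenic sham array 2 stood apart: 37.2% of its probes were well above background, against 60.2 to 78.2% on the other arrays, and its negative control spots had a net signal of 48.6 units, against 15.4 to 21.0 units elsewhere. Its correlation with the other transgenic sham arrays was 0.91 and 0.92, against 0.98 between those 2 (Pearson's r across probes, which are not independent). The 75th percentile itself was 9.40 to 9.42 on transgenic sham arrays and 9.78 to 9.83 on control TAC arrays in log2 units (exact permutation test, two-sided, p = 0.1, the smallest that 3 against 3 allows). An alternative chosen after seeing this raised every array to 1 common floor, the highest of the arrays' lowest scaled signals well above background, so that a difference below the floor disappears by construction. With it 1259 genes differed directly, and 24 of the 97 direct calls among the genes chosen by the naming rule were lost. Pieces of left ventricle were measured, not single cell types, so fewer cells of a type and less RNA per cell cannot be told apart.

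Unbanded transgenic and banded wild-type hearts had overlapping levels of Myh7, the slow myosin heavy chain, while transgenic sham hearts lay far below control TAC hearts in extracellular matrix and natriuretic peptide genes. They exceeded control TAC hearts in Fgf21, in the serine enzyme Phgdh and the asparagine enzyme Asns, and in a set of genes near baseline after banding. Of 25320 genes and unnamed probes tested, 1364 (5.39%) differed, 572 higher (2.26%) and 792 lower (3.13%) in transgenic sham hearts. The median difference over all of them was 0.04. Against control sham, 359 (1.42%) changed in transgenic sham hearts and 5203 (20.5%) in control TAC hearts. These 2 comparisons share the control sham arrays. The transgenic count of 359 was 119 without transgenic sham array 2, 640 without array 1, 159 without control TAC array 1, and 84, 99 and 85 without control sham arrays 1, 2 and 3. The control TAC count was 2745 without control TAC array 3, and 2820 and 3106 without control sham arrays 1 and 3. Without transgenic sham array 2, 713 differed directly, and without control TAC array 1 or 3 the counts were 653 and 452. Without control sham array 1, which changes the pooled spread alone, 865 differed. With slide as a block, 363 did. In the fit to the 6 arrays alone, 57 did.

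**Figure D1:**
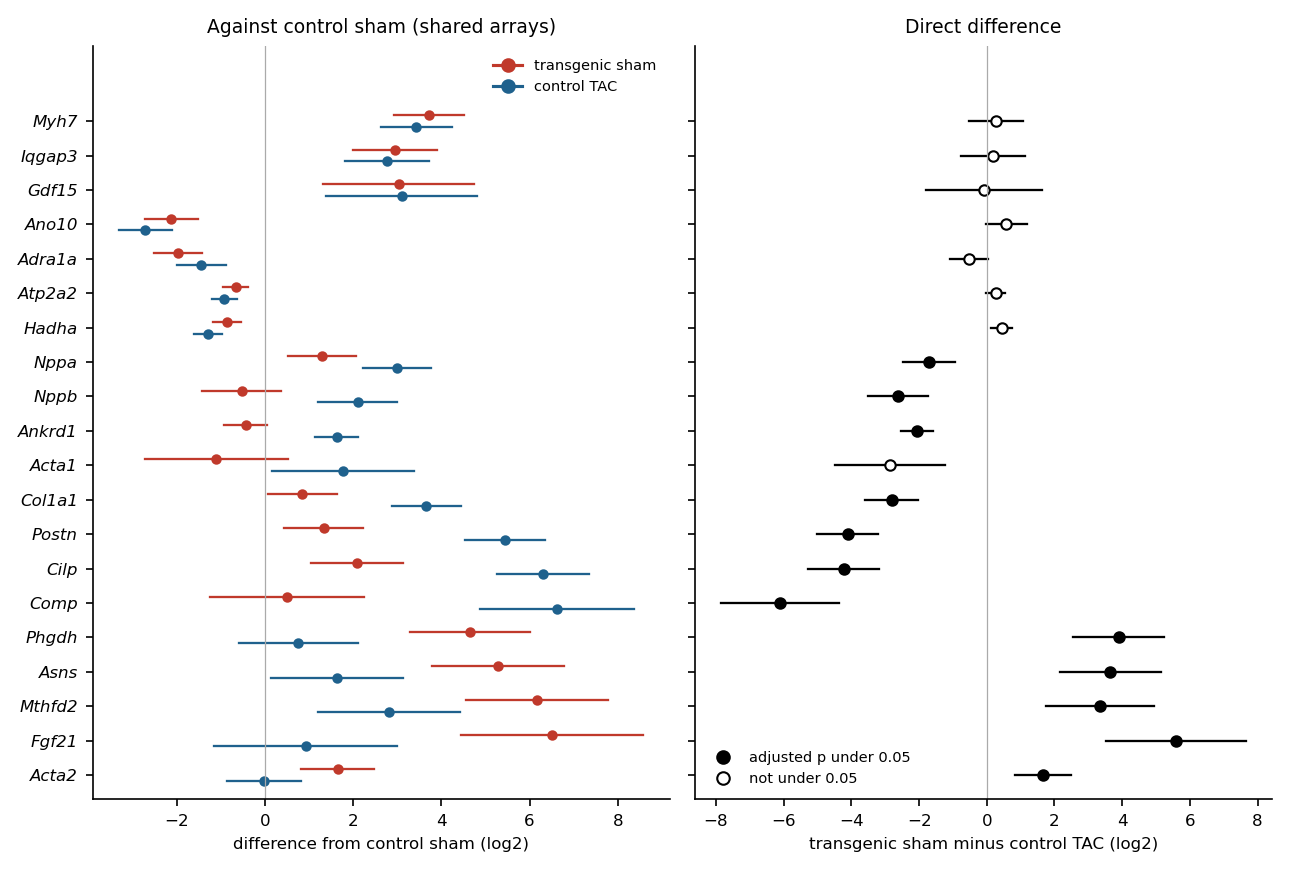
Log2 differences with 95% intervals for 20 genes. On the left, transgenic sham (red) and control TAC (blue) are each set against the same 3 control sham arrays; on the right is transgenic sham minus control TAC, filled where adjusted p was under 0.05. Myh7 intervals lie close together on the left, whereas Comp, Cilp and Postn lie far to the left of 0 on the right, and Fgf21, Mthfd2, Asns and Phgdh to the right of it.

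Myh7 reached 3.80, 3.58 and 3.77 in transgenic sham hearts, against 3.87, 2.62 and 3.81 in control TAC hearts. Control sham hearts stood at 0.59, -0.63 and 0.04. The 2 tested groups overlapped and both lay above every control sham array. The direct difference was 0.28 ± 0.36 (SE; 95% interval -0.52 to 1.08; adjusted p = 0.698). Against control sham the rise was 3.71 in transgenic sham (adjusted p = 0.0014) and 3.43 in control TAC hearts (adjusted p = 0.000757), and both calls held with each of the 9 arrays left out in turn. Arrays of both groups share a glass slide on slide 2 (transgenic sham 1, control TAC 1 and 3) and slide 3 (transgenic sham 2, control TAC 2), and within these the difference was -0.04 and 0.95.

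The fast cardiac myosin Myh6, the isoform that Myh7 replaces, had -0.34, -0.47 and -0.37 in transgenic sham hearts, against -0.63, -0.81 and -0.75 in control TAC hearts. These ranges did not overlap, and the difference of 0.34 ± 0.11 (95% interval 0.10 to 0.58) missed the threshold (adjusted p = 0.0986), and a second probe gave 0.61. Myh6 had a change of -0.39 with the transgene (adjusted p = 0.109), and it fell by 0.73 after banding (adjusted p = 0.00254).

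Other genes that passed against control sham in both groups, with no direct difference called, were chosen by the smaller of the 2 changes. The higher ones were Iqgap3, a scaffold of the cytokinetic and cortical actin network, with 2.95 in transgenic sham and 2.77 in control TAC hearts, Spag5, a mitotic spindle protein, Gask1b, the kinase Dyrk3, Lhfpl2, Spats1, Zfp365, Ddias and Hacd4. Zfp365 changed by 1.52 in transgenic sham and 2.13 in control TAC hearts, and its direct difference of -0.62 had a 95% interval of -1.06 to -0.17 (adjusted p = 0.102). The lower ones included Ano10, a membrane protein of the anoctamin family (-2.12 and -2.70), Msln, the mesothelial surface protein mesothelin (-3.60 and -2.03), Adra1a, the alpha-1A adrenergic receptor (-1.96 and -1.44), the amylase genes Amy1 and Amy2a5, Tbc1d10c, the potassium channel subunit Kcnv2, the splicing regulator Rbfox1 and the actin-capping protein Tmod4. Msln narrowly missed a direct call, with a difference of -1.565 (adjusted p = 0.0529). Over 24 alternative fits its direct difference ranged from -2.65 to 0, and it passed in 5. Amy1 and Amy2a5 are near-identical paralogs whose probes may share signal. A second probe of Ano10 gave -0.03 in transgenic sham and 0.19 in control TAC hearts, so its 2 probes disagree. A second probe of Amy2a5 gave -0.78 in transgenic sham and -1.83 in control TAC hearts.

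The calls against control sham in the transgenic hearts were less firm than this list implies. Of the 20 genes, Myh7, Zfp365, Ano10, Msln and Adra1a kept theirs in all 9 fits that leave out 1 array. The other 15 lost it in some, among them Iqgap3 without control sham array 1, 2 or 3 (adjusted p = 0.0673, 0.0605 and 0.058), and 13 more without transgenic sham array 2 or a control sham array (adjusted p between 0.052 and 0.162). Some of those 13 also lost it without control TAC arrays or other transgenic sham arrays, with adjusted p in the same span.

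The natriuretic peptides did not share the pattern of Myh7. Nppb, the B-type natriuretic peptide released by a stretched ventricle, had -0.39, -0.53 and -0.66 in transgenic sham hearts, against 1.95, 1.87 and 2.49 in control TAC hearts. No array of one group came near the other, and the difference was -2.63 ± 0.40 (SE; adjusted p = 0.0075), with -2.61 and -2.40 within slides. Nppa, the atrial natriuretic peptide, had 1.42, 1.27 and 1.19 in transgenic sham hearts, against 3.1, 2.84 and 3.05 in control TAC hearts. Transgenic sham hearts thus stood between control sham, at -0.13, 0.42 and -0.29, and control TAC, with no overlap on either side. The difference from control TAC was -1.71 ± 0.35 (adjusted p = 0.023), and that from control sham was 1.29 (adjusted p = 0.104). The direct call for Nppa was lost without transgenic sham array 2 or 3 (adjusted p = 0.0613 and 0.0534) or control TAC array 1 or 3 (0.0707 and 0.085). With slide as a block, adjusted p was 0.0665 for Nppb and 0.14 for Nppa.

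Stress-responsive sarcomere genes were also lower than after banding. Ankrd1, a titin-associated ankyrin repeat protein induced by wall stress, had -0.33, -0.25 and -0.72 in transgenic sham hearts, against 1.68, 1.54 and 1.67 in control TAC hearts. The groups were well separated, by -2.06 ± 0.22 (adjusted p = 0.0014). Xirp2, a protein of the intercalated disc, differed by -1.57 (adjusted p = 0.0108), and Mybpc2, the fast skeletal myosin-binding protein C, by -1.96 (adjusted p = 0.0135). Acta1, skeletal alpha-actin, had -1.81, -1.28 and -0.20 in transgenic sham hearts, against 2.39, 2.97 and -0.06 in control TAC hearts. Its control TAC arrays were widely spread, with array 3 near baseline, and the difference of -2.86 ± 0.72 had an adjusted p of 0.0508, or 0.0105 without that array and 0.0483 without transgenic sham array 3. In the list of 13 fetal and hypertrophy genes 6 were lower (background 3.13%) and 1 higher (background 2.26%) in transgenic sham than in control TAC hearts, with a median difference of -0.88 beside 0.04 over all genes. Leaving out 1 array gave 4 to 6 lower and 0 or 1 higher, and without transgenic sham array 2 there were 4 lower and 0 higher.

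The 1 member that was higher was Acta2, smooth muscle alpha-actin, which is also made by myofibroblasts and by stressed cardiomyocytes. It had 1.22, 1.81 and 1.92 in transgenic sham hearts, against -0.19, -0.66 and 0.79 in control TAC hearts. The ranges did not overlap, and the difference was 1.67 ± 0.37 (adjusted p = 0.0326). The call was lost in 7 of 9 fits with 1 array left out: without transgenic sham array 2 or 3 (adjusted p = 0.0862 and 0.0759), control TAC array 1 or 2 (0.0945 and 0.0799), or control sham array 1, 2 or 3 (0.0567, 0.0503 and 0.0524). It was also lost with the common floor (adjusted p = 0.0508). Of the 11 smooth muscle and pericyte markers measured, Acta2 and Abcc9, a subunit of potassium channels of vascular muscle, were higher (background 2.26%) and none was lower (background 3.13%). Most went the other way: 8 of the 11 direct differences lay below 0, with a list median of -0.37. Of these 8, Cnn1 and Pdgfrb narrowly missed the threshold (adjusted p = 0.0515 and 0.0614). Abcc9 (0.60 ± 0.14, adjusted p = 0.036) lost its call in 7 of 9 such fits (adjusted p up to 0.0977, without control TAC array 3). The mean level of these markers over the list was 0.15 to 0.45 on transgenic sham arrays and 0.44 to 0.64 on control TAC arrays. Their part in the Acta2 difference was not tested.

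Rcan1, a calcineurin inhibitor that calcineurin signalling itself induces, was near baseline in transgenic sham hearts and higher in control TAC hearts. It had -0.42, -0.23 and -0.09 in transgenic sham hearts, against 1.18, 1.88 and 1.5 in control TAC hearts. The groups did not overlap, and the difference was -1.77 ± 0.19 (adjusted p = 0.00172), with -1.76 and -2.11 within slides. Among the 19 calcineurin and NFAT genes measured Rcan1 was the 1 that differed, a count near the background of 5.39%, and the list median was -0.13. Ppp3cb, the calcineurin A beta gene itself, had -0.19, -0.38 and -0.23 in transgenic sham hearts, against -0.26, -0.35 and -0.22 in control TAC hearts, a difference of 0.01 ± 0.09 (95% interval -0.20 to 0.22; adjusted p = 0.966). Where its measured probe lies relative to the splice variant was not determined here, so this value neither tests nor replaces a check of the transgene.

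**Figure D2:**
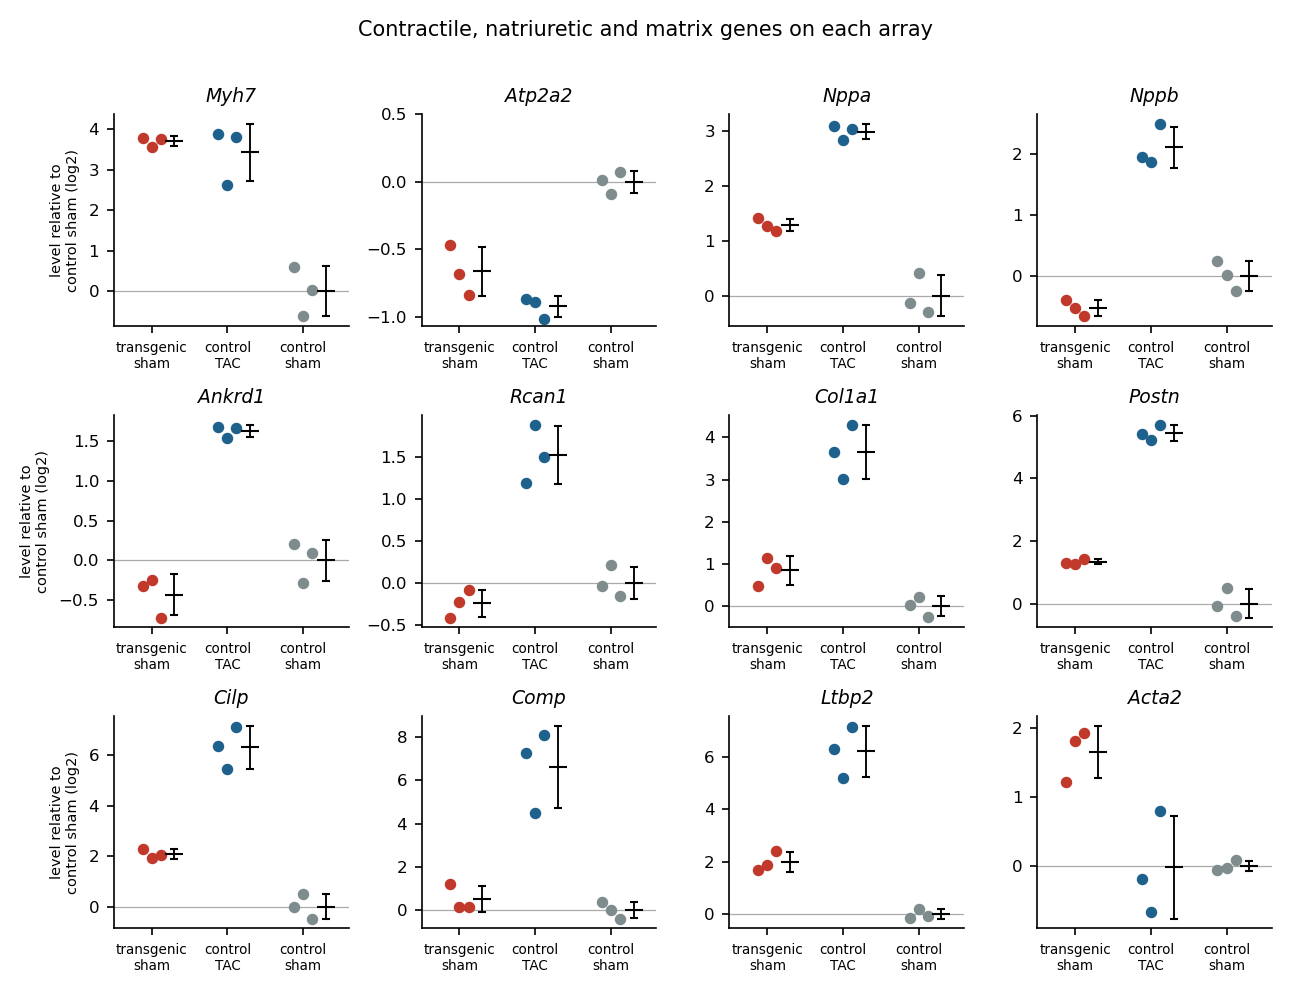
Level on each array relative to the control sham mean (log2) for 12 contractile, natriuretic, calcineurin-responsive and matrix genes. Points are single arrays of transgenic sham (red), control TAC (blue) and control sham (grey) hearts, and the black marks are group means with SD (n = 3 each). In Myh7 the red and blue points overlap, in Nppb, Ankrd1 and Rcan1 the red points are near or below 0, and Cilp and Ltbp2 red points lie between grey and blue.

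Matrix genes were far lower in transgenic sham than in control TAC hearts. Of 16 collagen genes measured, 15 were lower in transgenic sham than in control TAC hearts (background 3.13%), with a median difference of -1.84. The exception was Col8a2, at -0.73, which did not pass. Against control sham none of the 16 passed in transgenic sham hearts (background 1.42%), where 15 lay above 0 and the list median was 0.72. In control TAC hearts 15 rose (background 9.24%), and the list median was 2.40. On single arrays it was 0.52 to 0.88 in transgenic sham and -0.11 to 0.13 in control sham hearts. Leaving out 1 array gave 14 to 16 lower collagens, and the median was -1.89 and -1.61 within slides. With slide as a block 7 passed, and in the fit to the 6 arrays alone 2 did.

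Col1a1, the main chain of the fibrillar type I collagen, had 0.47, 1.15 and 0.92 in transgenic sham hearts, against 3.66, 3.02 and 4.30 in control TAC hearts. The highest transgenic sham array was below the lowest control TAC array, and the difference was -2.81 ± 0.35 (SE; adjusted p = 0.00338). Col3a1, its partner in fibrils, differed by -2.66 ± 0.31 and Col5a2, which regulates fibril width, by -3.42 ± 0.32. The basement membrane chains Col4a1 (-1.36 ± 0.15) and Col4a2 (-1.33 ± 0.12) had smaller but tight differences. For Col5a2 the level against control sham was 1.54 in transgenic sham hearts, just outside the threshold (adjusted p = 0.0511; 0.031 and 0.00896 without control TAC array 2 or 3), and 4.96 in control TAC hearts. Its direct difference with the common floor was -1.30 and missed the threshold (adjusted p = 0.051).

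Of 35 matricellular and other matrix genes measured, 25 were lower (background 3.13%) and none higher (background 2.26%) in transgenic sham hearts, with a median difference of -1.96. All 35 differences lay below 0, and 30 had arrays that did not overlap (background 24.8%). None passed against control sham in transgenic sham hearts (background 1.42%; median 0.50), though 29 of the 35 lay above 0 there. In control TAC hearts 31 rose (background 9.24%; median 2.44). List medians on single arrays were 0.32 to 0.65 in transgenic sham and -0.20 to 0.22 in control sham hearts. Leaving out 1 array gave 18 to 25 lower members, with 18 without transgenic sham array 2 and also without control TAC array 1 or 3, and the median was -2.18 and -1.27 within slides. With slide as a block 9 passed, and in the fit to the 6 arrays alone 4 did.

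Comp, cartilage oligomeric matrix protein, which binds collagen fibrils, had 1.2, 0.16 and 0.16 in transgenic sham hearts, against 7.27, 4.49 and 8.09 in control TAC hearts. It had the largest negative difference of all genes that met the naming rule, -6.11 ± 0.78 (adjusted p = 0.00375). Within slides it was -6.48 and -4.33, and control TAC array 2 was the lowest of its group. Postn, periostin, a product of activated fibroblasts, had 1.29, 1.28 and 1.42 in transgenic sham hearts, against 5.41, 5.22 and 5.71 in control TAC hearts. Both groups were tight, and the difference was -4.11 ± 0.40 (adjusted p = 0.000853). Thbs4, thrombospondin 4, had -0.03, -0.42 and -0.07 in transgenic sham hearts, against 4.13, 3.21 and 4.27 in control TAC hearts, and differed by -4.04 ± 0.29 (adjusted p = 0.000149).

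Cilp, cartilage intermediate layer protein, a marker of cardiac matrix remodelling, had 2.30, 1.93 and 2.02 in transgenic sham hearts, against 6.38, 5.43 and 7.11 in control TAC hearts. Ltbp2, which binds elastic microfibrils, had 1.67, 1.85 and 2.41 in transgenic sham hearts, against 6.30, 5.18 and 7.11 in control TAC hearts. Both stood above every control sham array in transgenic sham hearts, by 2.08 and 1.98 on average, but neither passed there (adjusted p = 0.0623 and 0.0928), except Cilp without control TAC array 2 or 3 (0.0478 and 0.0487). The direct differences were -4.23 ± 0.47 for Cilp (adjusted p = 0.00186) and -4.22 ± 0.50 for Ltbp2 (adjusted p = 0.00284). Thbs1, thrombospondin 1, differed by -2.29 ± 0.58 and missed the threshold (adjusted p = 0.0524, or 0.0332 without transgenic sham array 3).

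Other genes with the largest negative differences were Dio2, the deiodinase that activates thyroid hormone (-4.25 ± 0.33, adjusted p = 0.000252), and Dkk3, a secreted protein of the Dickkopf family (-3.63 ± 0.60, adjusted p = 0.0106). Ecrg4, a secreted peptide precursor, was not well above background on any transgenic sham array and was on all 3 control TAC arrays, and it was at least 16.6-fold lower in transgenic sham hearts (adjusted p = 0.0283) by each array's own lowest signals. Its difference with the common floor was -1.76 (adjusted p = 0.2). Frem1, a basement membrane protein, was likewise not well above background on transgenic sham arrays and was at least 4.20-fold lower by the same measure (adjusted p = 0.0441), but with the common floor its difference was -0.07 (adjusted p = 0.604). Such a bound sets the control TAC mean against the lowest signals counted as above background on each transgenic sham array and depends on that choice. The remaining members of this group, the collagen-binding proteoglycan Fmod (-3.90), the Wnt modulator Sfrp2 (-3.61) and the heparin-binding factor Ptn (-3.43), passed with all arrays, and with the common floor Fmod and Ptn did not (-2.30 and -2.87, adjusted p = 0.13 and 0.0591). Each of Ecrg4, Frem1, Fmod, Sfrp2 and Ptn lost its call without control TAC array 1 (adjusted p = 0.0853, 0.102, 0.0627, 0.0669 and 0.0652). Further losses came without control TAC array 3 for Ecrg4, Frem1, Fmod and Sfrp2 (0.106, 0.165, 0.0584 and 0.0637), without transgenic sham array 2 for Fmod and Ptn (0.0567 and 0.0685) and without transgenic sham array 3 for Ecrg4, Frem1, Sfrp2 and Ptn (0.0699, 0.0949, 0.0652 and 0.0545). Ecrg4 and Frem1 also lost theirs without transgenic sham array 1 (0.0613 and 0.0841), and Frem1 without control TAC array 2 or control sham array 1 or 3 (0.0641, 0.0721 and 0.0591).

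**Figure D3:**
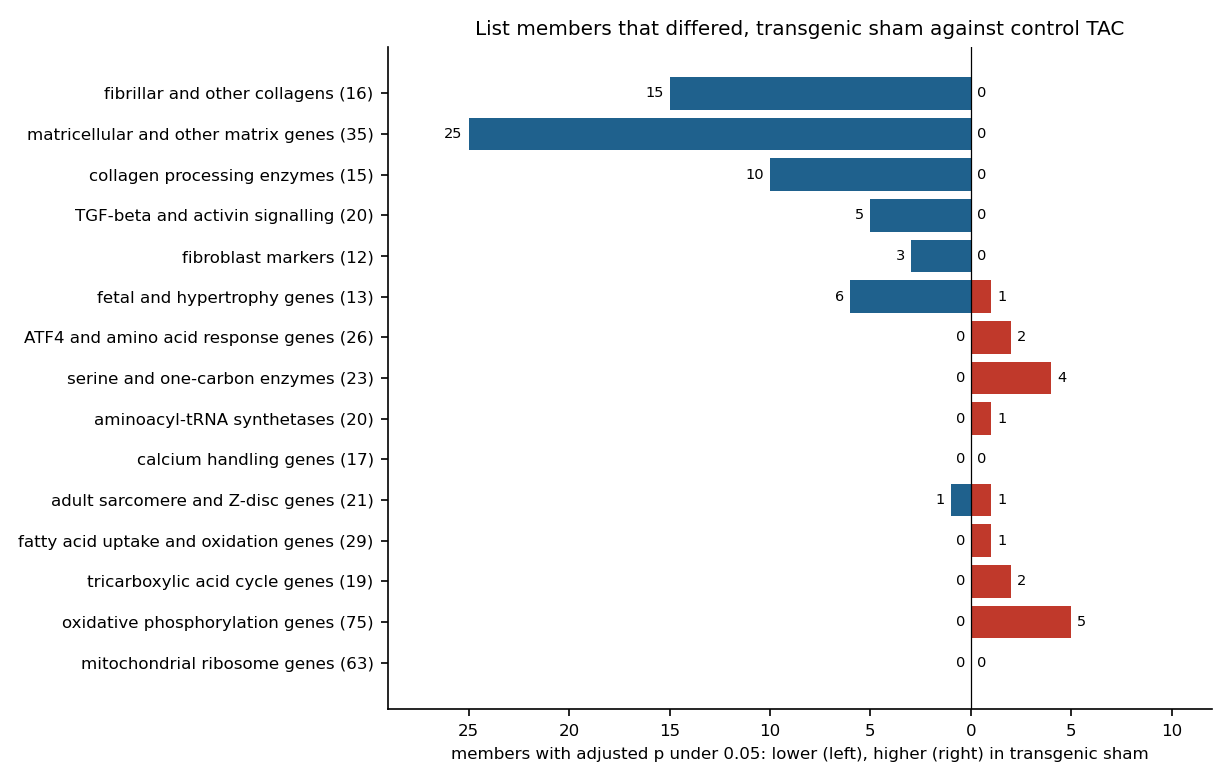
Number of members of 15 gene lists with adjusted p under 0.05 for transgenic sham against control TAC, lower to the left and higher to the right of 0, with the number measured in brackets. Matrix lists carry the long bars to the left (25, 15 and 10 members), and no list has more than 5 members to the right.

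Enzymes that process collagen followed at smaller size: 10 of 15 were lower in transgenic sham hearts (background 3.13%), with a median of -0.74, and 5 to 9 passed with 1 array left out, 5 of them without control TAC array 3. With slide as a block 1 passed. Among them Adamts2, which trims procollagen, differed by -1.92 ± 0.24 (adjusted p = 0.0037), Loxl1 and Loxl3, which cross-link collagen and elastin, by -1.69 ± 0.23 and -2.67 ± 0.36, and the procollagen protease Bmp1 by -0.89 ± 0.12. Bmp1 has 2 other probes, at -0.48 and 0.00, so its probes disagree. In the TGF-beta and activin list 5 of 20 were lower (background 3.13%), among them the ligand Tgfb2 (-1.62 ± 0.27, adjusted p = 0.0117), the activin subunit gene Inhbb (-1.40 ± 0.22, adjusted p = 0.0078), the receptor gene Tgfbr2 (-0.85 ± 0.18, adjusted p = 0.0266) and Ltbp2. The list median was -0.61, and 3 to 7 members passed with 1 array left out, 3 without control TAC array 1 or 3 or transgenic sham array 2 or 3. Tgfbr2 lost its call without control TAC array 1, 2 or 3 (adjusted p = 0.05, 0.0644 and 0.105) or transgenic sham array 2 or 3 (0.0626 and 0.0619). Loxl3 and Inhbb differed by -1.49 and -0.80 with the common floor, and neither passed (adjusted p = 0.0555 and 0.0561).

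Markers of the cells that make and accompany matrix had smaller differences than matrix genes. Of 12 fibroblast markers 3 were lower in transgenic sham hearts (background 3.13%): Meox1, a transcription factor of activated fibroblasts (-2.24 ± 0.29, adjusted p = 0.00426), Pi16 (-1.26 ± 0.19, adjusted p = 0.00671) and Fap, fibroblast activation protein (-1.33 ± 0.21, adjusted p = 0.00934). The general fibroblast receptor Pdgfra had 0.75, 0.50 and 0.58 in transgenic sham hearts, against 0.68, 1.56 and 1.33 in control TAC hearts, and its difference of -0.58 (95% interval -1.08 to -0.08) did not pass (adjusted p = 0.156). The mean level over the list was 0.20 to 0.55 on transgenic sham arrays and 0.88 to 1.14 on control TAC arrays, with a median difference of -0.57. Of 13 macrophage and monocyte markers 3 were lower (background 3.13%): the Fc receptor Fcgr1 (-1.46), the lipid receptor Trem2 (-0.87) and the monocyte chemokine receptor Ccr2 (-1.86). The mean over the 13 markers was -0.02 to 0.24 on transgenic sham arrays and 0.59 to 1.01 on control TAC arrays, with a median difference of -0.21. Each of the 3 lost its call in some fit: Fcgr1 and Trem2 without control TAC array 3 (adjusted p = 0.0579 and 0.0599), Ccr2 without control TAC array 1 or 2 (0.0590 and 0.0588) or transgenic sham array 2 or 3 (0.0508 and 0.0512). With the common floor Fcgr1 had no difference and Ccr2 one of -0.01 (adjusted p = 0.604), both lying near or under it, while Trem2 passed. Endothelial markers averaged 0.07 to 0.13 on transgenic sham arrays and 0.36 to 0.64 on control TAC arrays, and 1 of 12 (background 3.13%), Emcn, was lower (-0.56, adjusted p = 0.0436), a call lost in 7 of 9 fits with 1 array left out (adjusted p up to 0.155, without control TAC array 3). These marker levels moved with the matrix genes, and their part in those differences was not tested.

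Genes of energy metabolism lay below control sham in both groups, deeper after banding. Of 75 oxidative phosphorylation genes 4, namely Ndufb2, Sdhb, Sdhc and Cox6c, fell in transgenic sham hearts (background 0.648%; median -0.37), and 74 in control TAC hearts (background 11.3%; median -0.70). Directly, 5 of 75 were higher in transgenic sham hearts (background 2.26%): Ndufa5, Ndufa7, Ndufa12, Ndufv1 and Cyc1. All 75 direct differences were above 0, with a median of 0.31, and 60 had arrays that did not overlap (background 24.8%). List medians on single arrays were -0.44 to -0.30 in transgenic sham hearts and -0.84 to -0.62 in control TAC hearts, so the groups separated at the level of the list. Without transgenic sham array 2, none passed directly and none in transgenic against control sham hearts. No direct call was made without control TAC array 3, and no call with the transgene without control TAC array 1 or control sham array 1, 2 or 3. The direct median was 0.14 with quantile normalization, 0.43 with median scaling and 0.48 with normexp background correction, beside -0.04, 0.16 and -0.28 over all genes. With quantile normalization 26 of the 75 fell in control TAC hearts, and 1 was higher in the direct comparison.

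Among 29 genes of fatty acid uptake and oxidation, 10 fell in transgenic sham hearts (background 0.648%; median -0.55) and 25 in control TAC hearts (background 11.3%; median -0.86). Hadha, the alpha subunit of the mitochondrial trifunctional protein, had -0.79, -1.02 and -0.76 in transgenic sham hearts, against -1.21, -1.23 and -1.43 in control TAC hearts. The ranges did not overlap, but the difference of 0.44 ± 0.14 (95% interval 0.12 to 0.75) did not pass (adjusted p = 0.102). Acads and Decr1, which act on short chains and on unsaturated fatty acids, fell by 1.01 and 0.92 in transgenic sham hearts and by 1.04 and 1.01 in control TAC hearts, and their direct differences were 0.03 (95% interval -0.35 to 0.42) and 0.09 (-0.26 to 0.44). Etfb, which passes electrons from fatty acid oxidation to the respiratory chain, was the 1 member higher in transgenic sham than in control TAC hearts (0.60 ± 0.14, adjusted p = 0.037), a count near the background of 2.26%. No call with the transgene was made in the list without control sham array 1, 2 or 3, 2 were made without control TAC array 1 and 1 without transgenic sham array 3. None was made without transgenic sham array 2, where the list median was -0.54, and with quantile normalization, where it was -0.40. Etfb lost its call in 7 of 9 fits with 1 array left out (adjusted p up to 0.132, without control TAC array 3).

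Of 19 tricarboxylic acid cycle genes 3, Idh2, Sdhb and Sdhc, fell in transgenic sham hearts (background 0.648%; median -0.36), and all 19 fell in control TAC hearts (background 11.3%; median -0.65). No call with the transgene was made without transgenic sham array 2 or 3, control TAC array 1 or control sham array 1, 2 or 3, whereas 18 or 19 fell after banding with each of the 9 arrays left out. Directly, Cs, citrate synthase (0.46 ± 0.10, adjusted p = 0.0283), and Idh3a, a subunit of isocitrate dehydrogenase (0.41 ± 0.08, adjusted p = 0.0224), were higher in transgenic sham hearts (background 2.26%), and both lost the call without transgenic sham array 2 (adjusted p = 0.0666 and 0.0625) or without control TAC array 1 (0.0822 and 0.0669) or 3 (0.105 and 0.082). Cs also lost it without transgenic sham array 3 or control sham array 1 (0.0595 and 0.0567). Of 20 genes of mitochondrial biogenesis and dynamics, none fell with the transgene (background 0.648%) and 11 after banding (background 11.3%), or 6 without control TAC array 3 or control sham array 1, 2 or 3 and 7 without control TAC array 1. Directly 3 were higher (background 2.26%), Esrrg, Esrra and Ppard, and 1 without any single array other than transgenic sham array 1, where 2 were. Esrrg, a nuclear receptor of oxidative genes in muscle, had 0.28, 0.43 and 0.34 in transgenic sham hearts, against -0.42, -0.35 and -0.18 in control TAC hearts, with opposite signs on all 6 arrays. Its difference of 0.67 ± 0.11 (adjusted p = 0.0124) held with each array left out. The coactivator gene Ppargc1a had -1.59, -1.21 and -0.42 in transgenic sham hearts, against -1.24, -2.01 and -2.06 in control TAC hearts, and its difference of 0.70 (95% interval -0.11 to 1.51) did not pass. In the 63 mitochondrial ribosome genes none passed directly (background 5.39%) or with the transgene (background 1.42%), and 32 fell after banding (background 11.3%). That count was 10 without control TAC array 3, 18 without control TAC array 1, and 14, 15 and 11 without control sham arrays 1, 2 and 3. No gene of glycolysis passed directly among 22 (background 5.39%). After banding 2 rose, near the background of 9.24%, and 8 fell (background 11.3%).

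**Figure D4:**
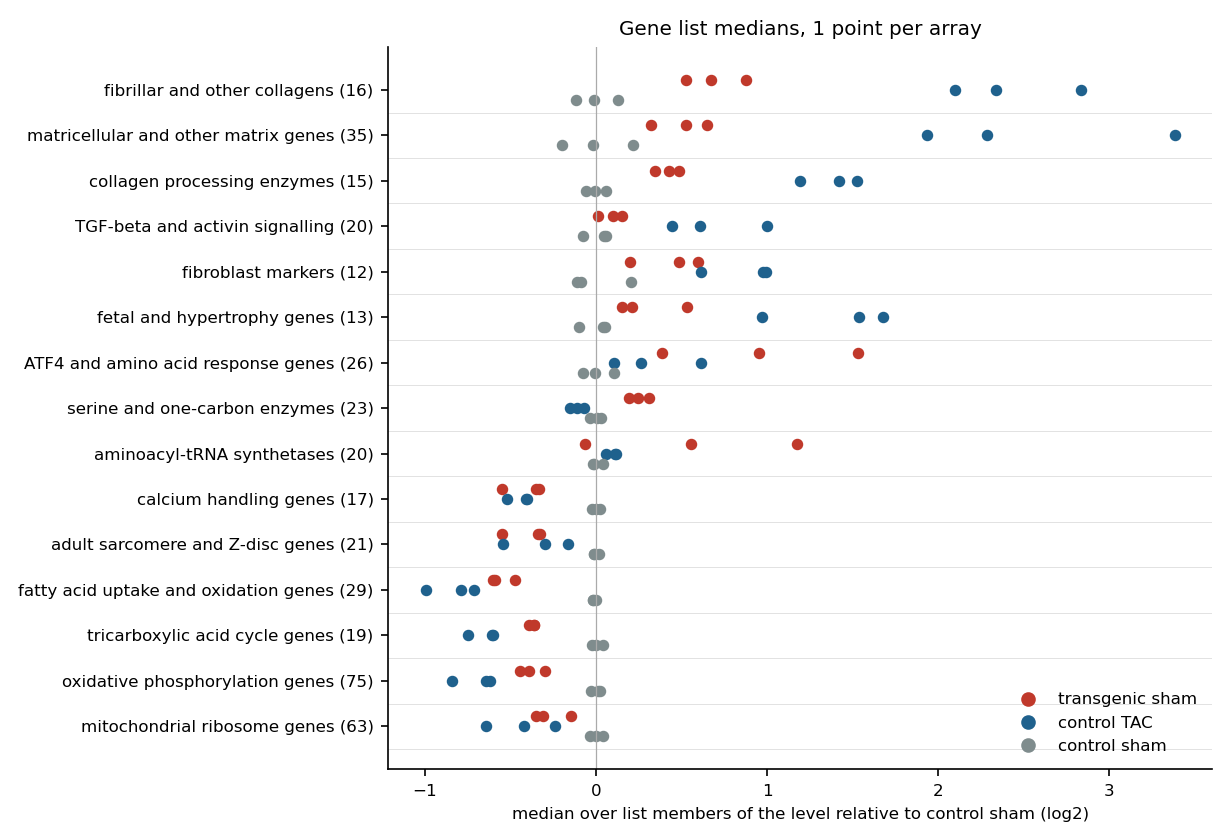
Median over list members of the level relative to control sham (log2) on each array, for 15 lists, with the number of members measured in brackets. Transgenic sham arrays are red, control TAC blue and control sham grey. Matrix lists show red points between 0 and 1 and blue points near 2 or above for collagens and matricellular genes, and the fatty acid, tricarboxylic acid cycle and oxidative phosphorylation lists show red points between grey and blue.

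Calcium handling genes had medians below baseline in both groups, at -0.36 in transgenic sham and -0.40 in control TAC hearts. Atp2a2, which pumps calcium back into the sarcoplasmic reticulum, had -0.47, -0.68 and -0.84 in transgenic sham hearts, against -0.86, -0.89 and -1.01 in control TAC hearts. The ranges came within a few hundredths of each other without overlap, and the difference was 0.26 ± 0.13 (95% interval -0.02 to 0.54; adjusted p = 0.263), and a second probe gave 0.50. Against control sham Atp2a2 fell by 0.66 in transgenic sham hearts (adjusted p = 0.0407) and by 0.92 in control TAC hearts (adjusted p = 0.00208). Of 17 calcium handling genes 3 fell with the transgene, Atp2a2, Trdn and Calr (background 0.648%), 7 fell after banding (background 11.3%), and none passed directly (background 5.39%). With the transgene 1 fell in 7 of the 9 fits with 1 array left out, those without control TAC array 3 and transgenic sham array 1 excepted, and after banding 4 fell without control TAC array 3 or control sham array 1. The transgenic call for Atp2a2 was lost in 7 of 9 fits with 1 array left out: without transgenic sham array 2 or 3 (adjusted p = 0.114 and 0.0732), control TAC array 1 or 2 (0.0764 and 0.0574) or control sham array 1, 2 or 3 (0.16, 0.113 and 0.145).

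Of 21 ion channel genes measured, 1 fell with the transgene (background 0.648%), 12 fell (11.3%) and 1 rose (9.24%) after banding, and 2 were higher (2.26%) and 1 lower (3.13%) directly. The call with the transgene was made without control TAC array 3 and in none of the 8 other fits with 1 array left out, and after banding 7 fell without control sham array 3. Kcnh2, a delayed rectifier potassium channel, had 0.35, 0.03 and -0.22 in transgenic sham hearts, against -0.80, -0.75 and -0.66 in control TAC hearts, a difference of 0.79 ± 0.16 (adjusted p = 0.0245). Kcnj2, the inward rectifier that sets the resting potential, differed by 0.58 ± 0.12 (adjusted p = 0.0258) and by -0.20 under normexp background correction, where it did not pass, and with the common floor it had no difference. Kcnh2 and Kcnj2 lost their calls without transgenic sham array 2 (adjusted p = 0.0605 and 0.0706), control TAC array 1 (0.0768 and 0.0664), 2 (0.0617 and 0.0549) or 3 (0.0721 and 0.0981). Among 21 adult sarcomere and Z-disc genes 1 was higher (background 2.26%) and 1 lower (3.13%) directly. Des, the muscle intermediate filament desmin, was lower in transgenic sham hearts (-0.75 ± 0.10, adjusted p = 0.00519). Against control sham all 21 lay below 0 with the transgene (median -0.39), and 1 passed (background 0.648%). After banding 16 lay below 0 (median -0.26), 9 fell (11.3%) and 1 rose (9.24%). With 1 array left out, 0 to 2 fell with the transgene and 8 or 9 after banding.

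Genes higher in transgenic sham than in control TAC hearts fell into those with a near-constant level on all 3 transgenic arrays and those with a wide one. Tmem72, a membrane protein, had 6.34, 6.89 and 6.66 in transgenic sham hearts, against -0.18, -0.08 and -0.23 in control TAC hearts. It was not well above background on any control TAC or control sham array, so it was at least 36.6-fold higher by each array's own lowest signals (adjusted p = 2.01e-05). Its difference was 1.17 with the common floor (adjusted p = 0.00412), and with normexp background correction it was 2.12 and did not pass (adjusted p = 0.131). Dlg4, the postsynaptic scaffold PSD-95, had 6.12, 6.13 and 6.02 in transgenic sham hearts, against 0.52, 0.14 and 0.82 in control TAC hearts, a difference of 5.6 ± 0.19 (adjusted p = 9.72e-07). Gna15, a G protein alpha subunit mostly of blood cells, differed by 5.09 ± 0.17, Pced1b by 4.85 ± 0.19 and Hspb9, a small heat shock protein of testis, by 5.42 ± 0.28. Within slides Tmem72, Dlg4, Gna15, Pced1b and Hspb9 differed by 4.65 to 6.96, each held with slide as a block, and each was called with every array left out. None of the 5 changed after banding at the threshold (adjusted p between 0.101 and 0.94).

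Plppr4 was also high, with 4.20, 4.12 and 3.50 in transgenic sham hearts, against -0.23, -0.74 and -0.40 in control TAC hearts (difference 4.40 ± 0.25, adjusted p = 2.38e-05), while its other probe differed by 0.25 and was not above background on transgenic sham arrays. Psg20, a pregnancy-specific glycoprotein, was at least 5.71-fold higher by each array's own lowest signals (adjusted p = 0.0186), with 2 of 3 transgenic sham arrays and no control TAC array well above background. Both groups lay at the common floor where that was set, and no difference remained. Its call was lost without transgenic sham array 2 (adjusted p = 0.0542) or control TAC array 1 or 3 (0.059 and 0.074), and its other probe differed by 0.30, also at background. Ren1, renin, the enzyme that starts angiotensin formation, had 2.25, 3.52 and 4.02 in transgenic sham hearts, against -0.63, -0.62 and -1.16 in control TAC hearts, a difference of 4.07 ± 0.38 (adjusted p = 0.000705). Tenm4, a teneurin of cell adhesion, had 2.64, 4.22 and 6.0 in transgenic sham hearts, against -0.12, 0.32 and 0.17 in control TAC hearts (difference 4.17 ± 0.71, adjusted p = 0.0121), and its other probe differed by -0.87. Slc7a3, a transporter of arginine and lysine, had 3.32, 5.44 and 6.94 in transgenic sham hearts, against 1.52, -0.97 and 1.56 in control TAC hearts (difference 4.53 ± 1.02, adjusted p = 0.0347). It passed in 1 of 9 fits with 1 array left out (adjusted p up to 0.087, without control TAC array 2). Tenm4 and Slc7a3 differed by 2.87 and 1.46 with the common floor, and neither passed (adjusted p = 0.06 and 0.232).

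**Figure D5:**
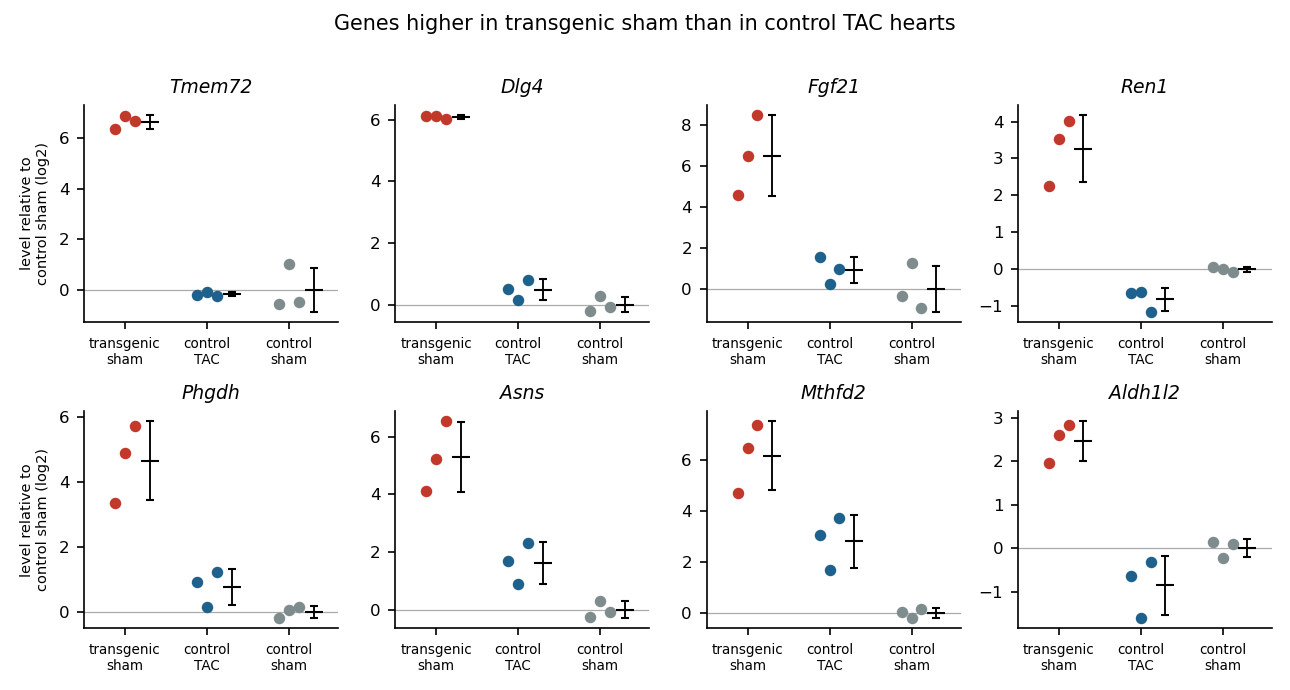
Level on each array relative to the control sham mean (log2) for 8 genes higher in transgenic sham than in control TAC hearts. Points are single arrays (transgenic sham red, control TAC blue, control sham grey), and black marks are group means with SD (n = 3 each). Tmem72 and Dlg4 have tight red points above 6, whereas Fgf21, Phgdh, Asns and Mthfd2 have red points spread over 2 units or more, with array 1 the lowest.

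Fgf21, the secreted factor of the ATF4 response, had 4.57, 6.47 and 8.49 in transgenic sham hearts, against 1.55, 0.25 and 0.98 in control TAC hearts. Every transgenic sham array was above every control TAC array, where 1 of 3 was well above background. The difference was 5.58 ± 0.93 (adjusted p = 0.0111), and against control sham, at background on all 3 arrays, transgenic sham hearts were at least 19.8-fold higher (adjusted p = 0.0121). Asns, asparagine synthetase, had 4.11, 5.22 and 6.54 in transgenic sham hearts, against 1.69, 0.89 and 2.33 in control TAC hearts (difference 3.65 ± 0.67, adjusted p = 0.0159). Phgdh, the first enzyme of serine synthesis, had 3.34, 4.89 and 5.72 in transgenic sham hearts, against 0.91, 0.14 and 1.23 in control TAC hearts (difference 3.90 ± 0.60, adjusted p = 0.00798), and a second probe gave 3.84. All 3 held with every array left out, and without transgenic sham array 2 the adjusted p was 0.0351 for Fgf21, 0.0452 for Asns and 0.0311 for Phgdh. The difference of Fgf21 was 1.16 with the common floor and 1.69 with normexp background correction, and it passed in neither (adjusted p = 0.354 and 0.427).

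Aldh1l2, which oxidises one-carbon units in mitochondria, had 1.96, 2.6 and 2.84 in transgenic sham hearts, against -0.63, -1.62 and -0.32 in control TAC hearts. The groups lay on opposite sides of baseline, and the difference was 3.32 ± 0.36 (adjusted p = 0.00175), or 1.82 with the common floor (adjusted p = 0.00848). Mthfd2, a mitochondrial one-carbon enzyme, had 4.71, 6.45 and 7.34 in transgenic sham hearts, against 3.05, 1.69 and 3.72 in control TAC hearts. It rose in both groups against control sham, by 6.17 in transgenic sham (adjusted p = 0.00412) and by 2.82 in control TAC hearts (adjusted p = 0.0219), and was higher by 3.35 ± 0.72 in transgenic sham hearts directly (adjusted p = 0.0282). That direct call was lost without transgenic sham array 2 or 3 (adjusted p = 0.0763 and 0.0652), control TAC array 1, 2 or 3 (0.068, 0.0738 and 0.0514) or control sham array 1 (0.0508). Psat1, the second enzyme of serine synthesis, had 1.93, 3.25 and 4.96 in transgenic sham hearts, against 1.18, 0.86 and 1.45 in control TAC hearts, and its difference of 2.21 ± 0.64 (95% interval 0.79 to 3.63) missed the threshold (adjusted p = 0.0741), while a second probe gave 1.15. Shmt2, which splits serine in mitochondria, differed by 0.56 ± 0.17 (adjusted p = 0.0826). Without transgenic sham array 1, the lowest of its group, Psat1 and Shmt2 passed (adjusted p = 0.0159 and 0.019).

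Within slide 2 and slide 3 the differences were 3.30 and 6.23 for Fgf21, 2.10 and 4.33 for Asns, 2.27 and 4.76 for Phgdh, 1.32 and 4.76 for Mthfd2, and 2.44 and 4.21 for Aldh1l2. With slide as a block the adjusted p was 0.0698 for Fgf21, 0.113 for Asns, 0.0859 for Phgdh, 0.156 for Mthfd2 and 0.0482 for Aldh1l2. Over the lists, 4 of 23 serine and one-carbon enzymes were higher in transgenic sham hearts (background 2.26%), namely Phgdh, Mthfd2, Aldh1l2 and the thymidylate synthase Tyms. The median over that list was 0.32. Of 26 ATF4 and amino acid response genes 2 were higher (Fgf21 and Asns; background 2.26%), with a median of 0.56. The ATF4 median was 0.11 within slide 2 and 0.92 within slide 3, beside 0.06 and 0.04 over all genes. On single arrays it overlapped, at 0.39 to 1.53 in transgenic sham and 0.11 to 0.62 in control TAC hearts. Against control sham, 5 of the serine and one-carbon enzymes rose in transgenic sham hearts (background 0.77%), beside 3 that rose (9.24%) and 3 that fell (11.3%) in control TAC hearts. Of the 5, 2 were called without transgenic sham array 2 or control sham array 1, 2 or 3, and 3 without control TAC array 1. The count that rose in control TAC hearts was 1 without control TAC array 3 or control sham array 1, 2 or 3. Directly, without transgenic sham array 1, 8 and 11 members were higher, and without array 2, 2 and 2. One-carbon counts were also 2 without control TAC array 1, 2 or 3 or control sham array 1. Of 20 aminoacyl-tRNA synthetases 1, Mars1, was higher (background 2.26%; 0.90 ± 0.22, adjusted p = 0.043), and all 20 differences were above 0, with a median of 0.41. The list median on single arrays was -0.07, 0.55 and 1.18 in transgenic sham hearts, against 0.06, 0.12 and 0.11 in control TAC hearts, so array 1 lay below the control TAC arrays, and the median difference was -0.06 within slide 2 and 0.30 within slide 3. Tyms and Mars1 were not called with the common floor (adjusted p = 0.616 and 0.0564). Without transgenic sham array 1, 8 passed, and without any other single array none did.

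Not every gene of the ATF4 list separated the groups. Gdf15, a secreted stress factor, had 1.48, 3.56 and 4.05 in transgenic sham hearts, against 3.75, 1.56 and 4.0 in control TAC hearts. The groups overlapped fully and the difference was -0.07 ± 0.76 (95% interval -1.78 to 1.64; adjusted p = 0.968). Against control sham it was 3.03 in transgenic sham hearts (adjusted p = 0.0904, or 0.0302 without transgenic sham array 1) and 3.11 in control TAC hearts (adjusted p = 0.0192). Nupr1, a stress-induced nuclear protein, differed by -0.64 (95% interval -1.83 to 0.56). The transcript of Atf4 itself had -0.31, 1.34 and 1.75 in transgenic sham hearts, against 0.15, 0.03 and 0.50 in control TAC hearts, a difference of 0.70 ± 0.47 (adjusted p = 0.419, or 0.0345 without transgenic sham array 1). Atf5, a related factor, rose by 2.18 against control sham in transgenic sham hearts (adjusted p = 0.0407, lost without transgenic sham array 2, where it was 0.119, and in 5 other fits, up to 0.16 without control sham array 1) and differed by 1.58 directly (adjusted p = 0.0603, or 0.0134 without transgenic sham array 1).

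Promoter windows of these genes were searched for TGATGNAA, the composite element that ATF4 binds with C/EBP partners, on both strands, in 250 bases before to 50 after each start (RefSeq, GRCm38.p6). A gene with several starts has several windows and was counted once, as holding the element where any of them did. The element was in windows of 9 of 24 genes of the ATF4 list (37.5%), 5 of 13 of the tRNA synthetases (38.5%) and 1 of 18 of the serine and one-carbon list, against 432 of 13216 tested genes (3.27%) and 1219 of 27025 genes with a window (4.51%). Of 23 matricellular genes 2 held it, and none of 13 collagen and 13 fetal genes did. Windows of Phgdh, Psat1, Mthfd2 and Atf4 held no match. A match is a stretch of letters and not a shown binding site. The ATF4 list was made of genes of the ATF4 response, so a high share there follows from its choice. It is no result about these hearts. Of the ATF4 list members that hold the element, Asns and Fgf21 were called directly. Atf3, Chac1, Herpud1, Jdp2, Nupr1, Trib3 and Vldlr also hold it and were not called. The windows of Asns (chr6:7693160-7693459, minus strand) and Fgf21 (chr7:45615441-45615740, minus strand) are printed because both genes passed the direct test and both hold the element, which is in capitals and starts at -23 in Asns and at -139, on the opposite strand, in Fgf21:
Asns: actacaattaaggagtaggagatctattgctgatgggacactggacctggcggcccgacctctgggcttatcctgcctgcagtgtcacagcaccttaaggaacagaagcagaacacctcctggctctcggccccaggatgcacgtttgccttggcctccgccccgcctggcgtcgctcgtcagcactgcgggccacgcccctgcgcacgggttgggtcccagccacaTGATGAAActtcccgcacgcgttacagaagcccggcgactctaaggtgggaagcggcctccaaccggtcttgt
Fgf21: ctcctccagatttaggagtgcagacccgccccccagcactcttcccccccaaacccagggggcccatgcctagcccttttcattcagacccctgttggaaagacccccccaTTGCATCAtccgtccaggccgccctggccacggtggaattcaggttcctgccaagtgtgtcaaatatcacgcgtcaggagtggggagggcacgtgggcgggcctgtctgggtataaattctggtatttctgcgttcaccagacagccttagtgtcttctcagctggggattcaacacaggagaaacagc

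Some genes fell with the transgene beyond the level after banding. Dhrs4, a peroxisomal reductase of retinal, had -1.75, -2.17 and -1.98 in transgenic sham hearts, against -0.80, -0.86 and -0.93 in control TAC hearts, a difference of -1.11 ± 0.14 (adjusted p = 0.00394). It fell in both groups against control sham. Hbegf, a heparin-binding ligand of the EGF receptor, lay on opposite sides of baseline: it had -1.17, -1.27 and -0.88 in transgenic sham hearts, against 0.82, 0.55 and 1.36 in control TAC hearts. The direct difference was -2.02 ± 0.22 (adjusted p = 0.00169). Clu, the secreted chaperone clusterin, had -1.04, -0.99 and -0.99 in transgenic sham hearts, against 0.38, 0.08 and 0.44 in control TAC hearts, a difference of -1.31 ± 0.13 (adjusted p = 0.00112). Abat, which breaks down GABA, differed by -1.53 ± 0.21 and the endosomal adaptor Tom1 by -0.75 ± 0.10, and a second Tom1 probe gave 0.39. The direct calls of Dhrs4, Hbegf, Clu, Abat and Tom1 held with every array left out. Against control sham Dhrs4 and Tom1 also held throughout, Clu reached adjusted p = 0.0501 without control sham array 3, and Hbegf and Abat lost theirs without transgenic sham array 2 (adjusted p = 0.126 and 0.106) and in other fits (up to 0.175 for Hbegf without control sham array 1 and 0.129 for Abat without control sham array 2).

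Genes lowered by banding that stayed nearer baseline with the transgene included Penk, the precursor of enkephalins, with 0.84, -0.36 and 0.03 in transgenic sham hearts, against -1.67, -1.94 and -2.64 in control TAC hearts. Its difference was 2.25 ± 0.33 (adjusted p = 0.00621) and held with each array left out. Fam110c, a centrosomal protein, had -1.15, -0.06 and -0.47 in transgenic sham hearts, against -2.30, -2.57 and -3.74 in control TAC hearts (difference 2.31 ± 0.45, adjusted p = 0.0195), and was not called without transgenic sham array 2 (adjusted p = 0.0591) or control TAC array 3 (0.0625). Ttll1, an enzyme that modifies tubulin, fell in both groups, by 1.09 in transgenic sham (adjusted p = 0.0407) and by 2.25 in control TAC hearts (adjusted p = 0.000638). Directly it was higher by 1.15 ± 0.21 in transgenic sham hearts (adjusted p = 0.0159), and not called without control TAC array 1 or 3 (0.051 and 0.0694). A second probe, above background on all 9 arrays, gave 0.26 in transgenic sham and -0.07 in control TAC hearts, and 0.33 directly, so its 2 probes disagree.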

How the data were processed

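RNA was measured on 12 one-colour Agilent arrays of mouse left ventricle, 3 per group. Per the file headers, spot intensity was read and background-corrected by Feature Extraction 10.7.3.1, and the deposited processed signal is used. The authors also deposited a table of log2 values, centred per gene, which correlated at 0.99 or above with centred log2 processed signals. The submitters' processing notes name RMA, with no role stated. Log2 processed signals were scaled by subtracting each array's 75th percentile, control and outlier spots were left out, spots of a probe were averaged and the brightest probe stood for a gene. Of 39429 probes 26424 carried a gene name. Genes well above background on at least 3 arrays were tested: 25320, of which 16652 were named. All value columns given for the samples were used or mapped (0 columns of other samples).

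Group means of all 12 arrays were fitted with limma 3.58.1 in R 4.3.3 (lmFit, eBayes, Benjamini-Hochberg, 8 residual degrees of freedom, 3 contrasts); adjusted p-values in the text come from that fit. In simulated data with 100 genes shifted by 1 and 100 by 2 log2 units, 49% and 69% were recovered in the transgenic sham against control TAC comparison, with 5 unchanged genes called. That noise was independent and, for each gene, equally wide on every array. It held no slide effect, no floor for dim probes and no raised background on transgenic sham array 2, so these shares need not hold for the real arrays. Members and gene lists were chosen with earlier results of these data known. Genes are named by a stated rule: the largest direct differences, genes changed alike in both groups, core genes, up to 4 members of each list by p, and genes changed beyond banding or beyond the transgene. A few genes that this rule picks are not reported here. Lists carry no set test.

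Slides are the known batch: slide 2 holds transgenic sham 1 with control TAC 1 and 3, and slide 3 holds transgenic sham 2 with control TAC 2, so within-slide values compare these. Transgenic sham 3 lies on a slide with no control TAC array. Replicate numbers did not pair the arrays: same-numbered arrays' deviations correlated at 0.17, 0.05 and -0.12. Alternatives were quantile normalization, median scaling, normexp (offset 50) with and without quantile normalization, the deposited table, other probe filters, outliers kept, probe means, robust variance, array weights, slide blocks, the 6 arrays alone, a replicate block and each of the 9 arrays of the 3 groups compared left out. A common floor was added after seeing the data. The number of arrays limits the precision.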

Additional observations from a re-analysis of the deposited data

Results flagged for a closer look

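The 3 transgenic TAC arrays, of banded transgenic hearts, are in no contrast above, though they enter the fit that sets the pooled spread and the filter on dim probes. There, 11 of the genes with the largest higher level in transgenic sham than in control TAC hearts stood above every control TAC and control sham array, as mean levels over 3 arrays relative to control sham in log2 units. Those near-constant with the transgene were at 6.49 for Tmem72, 6.17 for Dlg4, 4.8 for Pced1b, 4.74 for Gna15, 4.51 for Hspb9 and 4.27 for Plppr4. Fgf21 was at 4.65, Psg20 at 3.06, Phgdh at 2.84, Ren1 at 2.48 and Tenm4 at 1.75. No difference between the 2 transgenic groups was tested.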

How the results depend on the processing

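Counts of genes differing between transgenic sham and control TAC hearts were 130 with normexp, 754 with no filter on dim probes, 2177 with genes above background on all arrays, 2219 with trended robust variance, 57 in the 6 arrays alone and 363 with slide as a fixed block. Leaving out 1 array gave 452 to 1708. Median scaling gave 928, split into 555 higher and 373 lower, against 572 and 792. The median of all genes was 0.16 with median scaling and -0.28 with normexp. Against control sham, counts in transgenic sham hearts were 223 with quantile normalization, 204 with median scaling, 47 with normexp, 129 with no filter, 1080 with all arrays above background, 948 with trended robust variance, 228 with array weights, 69 with slide as a fixed block and 676 with the common floor, and 84 to 640 with 1 array left out. For control TAC they were 1315 with normexp, 11796 with array weights and 477 with slide as a fixed block, and 2745 to 6013 with 1 array left out. With the replicate number as a block, 801 differed directly and 126 in transgenic sham against control sham; the numbers do not pair these arrays. List medians moved by more than the spread between arrays as follows: collagens -1.50 (normexp), fetal genes -1.57 (all arrays above background), fatty acid genes 0.43 (normexp), oxidative phosphorylation 0.14 (quantile), 0.43 (median scaling), 0.48 (normexp) and 0.16 (normexp with quantile), and serine enzymes 0.43 (median scaling), 0.14 (normexp), 0.23 (normexp with quantile), 0.16 (common floor) and 0.22 to 0.37 with 1 array left out. Kcnj2 (-0.20), Kcna1 (-0.14) and Krt28 (-0.25) changed direction with normexp. The cause of these shifts was not tested. Of 97 genes chosen by the naming rule and called directly, 50 kept the call with each of the 9 arrays left out. The call was lost by 60 with slide as a fixed block and 24 with the common floor. With normexp 62 lost it in the same direction, and the 3 that changed direction come on top.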

Other observations

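A few single genes of growth, inflammation and vessels, outside the remodelling lists, also differed. Pgf, placental growth factor, had 0.10, 0.10 and -0.23 in transgenic sham hearts, against -0.80, -0.75 and -1.06 in control TAC hearts (difference 0.86 ± 0.15, adjusted p = 0.0141, or 0.0583 without control TAC array 3). Aplnr, the apelin receptor of vessels, differed by -1.48 ± 0.28 (adjusted p = 0.0181; 0.0527 without transgenic sham array 2 and 0.0731 without control TAC array 3). Car9, a carbonic anhydrase induced by low oxygen, differed by -2.99 ± 0.62 (adjusted p = 0.0254; 0.0654 without control TAC array 1 and 0.1 without array 3), and by -0.23 with the common floor (adjusted p = 0.604). Among 20 inflammatory cytokine genes 1 was higher (background 2.26%) and 1 lower (background 3.13%), counts close to those shares. The higher was the eosinophil attractant Ccl11 (1.87 ± 0.43, adjusted p = 0.0371) and the lower the interferon-induced Cxcl10 (-2.03 ± 0.49, adjusted p = 0.0434). Each lost the call in 8 of 9 fits with 1 array left out, with adjusted p up to 0.11 for Ccl11 without control TAC array 1 and up to 0.158 for Cxcl10 without control TAC array 3. With the common floor Ccl11 had no difference and Cxcl10 one of -0.16 (adjusted p = 0.266).

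None of 12 proliferation, 16 immediate early, 16 clock, 15 cyclic GMP or 18 microtubule genes passed directly (background 5.39%). Lists this short can hold no call at that share. Their median differences were, in the same order, -0.62, -0.37, 0.39, -0.04 and -0.41, beside 0.04 over all genes. S100a8, a neutrophil gene, had 1.78, 1.76 and 3.24 in transgenic sham hearts, against -1.74, 1.48 and -0.72 in control TAC hearts (difference 2.59 ± 0.97, adjusted p = 0.148). Pde5a, which breaks down cyclic GMP, had -1.04, -0.39 and -0.35 in transgenic sham hearts, against -1.61, -5.96 and -6.69 in control TAC hearts (difference 4.16 ± 1.11, adjusted p = 0.06), with control TAC array 1 far from the other 2, and without that array the adjusted p was 0.00269.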
